A study of Drosophila melanogaster with 14 samples.

Results

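The genes described here encode the proteins of the mitochondrial ribosome. They were taken as every gene whose symbol starts with mRpL or mRpS in the processed tables of both experiments, which gave 72 genes, 46 mRpL and 26 mRpS, of 17493 genes counted. The study deleted single C-terminal exons of *shaggy* (*sgg*), which encodes the fly GSK-3 kinase, and measured poly(A) RNA of whole *Drosophila* embryos aged 10 to 15 h in 14 samples. The *sgg* isoA null samples (n = 3) came from a homozygous stock that lacks the Sgg-PA exon, without maternal or zygotic product, and their controls (n = 3) from the progenitor strain THattP40. The *sgg* isoB null samples (n = 4) were embryos without fluorescence from mothers carrying the deletion over the balancer FM7 GFP, which are hemizygous males that still hold maternal wild-type product. The isoB controls (n = 4) came, by their labels, from mothers with a progenitor chromosome over FM7 GFP. The methods write that chromosome as +, give FM7 GFP fathers and say that embryos without fluorescence were collected, which by this cross are males. The results text calls these controls the progenitor stock. No selection by sex is described for the isoA samples. In both deletions a DsRED marker had replaced the exon and was then removed with Cre, which left a loxP site.

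The mitochondrial ribosome translates the few proteins encoded by the mitochondrial genome, all of them subunits of the respiratory chain and ATP synthase. Its own proteins are encoded in the nucleus, made on cytosolic ribosomes and imported. Some descend from bacterial ribosomal proteins, such as those around the peptidyl transferase centre, the exit tunnel, the L7/L12 stalk and the decoding site, and others were added in the mitochondrial lineage. In *Drosophila* the small subunit protein tko is known from the mutant technical knockout, which is sensitive to mechanical shock. In mammals the counterparts of mRpS18A and mRpS30 sit in the large subunit despite their names, so the genes are grouped here by symbol.

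Total counts per sample ranged from 8082962 to 25124367, and the lowest count of any of the 72 genes in any sample was 32, so none of them was near the detection limit. Groups of 3 or 4 libraries limit precision, and the part of depth in it was not tested. All 72 passed the filter on low counts in both experiments. The level of *sgg* itself was 266 to 332 CPM (counts scaled to library size) in isoA null and 193 to 277 in isoA control samples, and 256 to 330 against 328 to 380 in the isoB experiment. The whole-gene count pools all isoforms, so it does not check the deletion of 1 exon. Muscle markers, present in embryos of this age, summed to 20768 to 31757 CPM in every sample. Among markers of other sources, eggshell and yolk protein genes, made in the ovary and fat body of the mother, summed to 57.3 to 102.5 CPM in isoA null and 16.3 to 30.1 in isoA control samples. Late cuticle genes summed to 5469 to 9833 CPM in isoB null and 11117 to 15397 in isoB control samples, and heat shock genes to 1559 to 2894 against 481 to 625. Hemocyte and fat body markers summed to 270.6 to 330.3 CPM in isoB null and 203.9 to 217.1 in isoB control samples. In isoA these groups overlapped. Of the 7 markers listed, 4 were tested in isoB. Of these, 2 were called higher (*srp* and *Pxn*), beside 4.17% of all genes, and 1 was lower, with a log2 fold change of -0.66. In the isoA experiment cuticle genes summed to 8610 to 10125 CPM in null and 7585 to 13639 in control samples, and heat shock genes to 801 to 977 against 739 to 1423. The part of these differences in the results below was not tested.

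Mitochondrial ribosomal protein RNAs were moderately abundant and close to each other in level. Levels between genes were compared per length, as counts per kilobase of exon not shared with another counted gene, scaled to the same total in every sample (TPM). Over 71 members with an annotated length the median of the mean levels was 78.0 TPM and the range 30.3 to 205. The median was 23.0 over all genes kept, 233 for nuclear-encoded subunits of oxidative phosphorylation (OXPHOS) and 3249 for cytosolic ribosomal proteins. *mRpL12*, which encodes the stalk protein that helps recruit translation factors, was highest at 205, with samples from 178 to 239. *mRpL30*, a core protein of the large subunit, followed at 166 (147 to 224), ahead of *mRpL28* at 134.6 (120.7 to 159.6) and *mRpL13* at 130.4 (105.4 to 179.8). The sample ranges of these neighbours overlapped. The lowest were *mRpL21* at 30.3 (23.9 to 45.9), *mRpS24* at 30.9 (22.5 to 45.8), *mRpS21* at 31.1 (19.5 to 63.3) and *mRpL11*, another protein of the stalk region, at 50.1 (39.9 to 63.4). The first 3 of these could not be ordered beyond their spread, nor could *mRpL11* and the next member, *mRpL27*, at 50.5 (41.6 to 68.2). Of the exon bases of *mRpS24* and *mRpS21*, 55.3% and 48.0% were shared with *TBC1d7* and *CG8870*, and reads over shared bases are dropped by the counter at its defaults, so their counts rest on what remains.

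The members lie on all major chromosome arms, with 11 on X, 12 on 2L, 11 on 2R, 16 on 3L and 21 on 3R, and 1, *mRpS5*, was not matched by its identifier. The X-linked member nearest to *sgg* was *mRpL14*, at X: 2343997 to 2344649, 289.3 kb away in the Release 6 assembly. The 11 X-linked members had median log2 fold changes of -0.21 in isoA and -0.05 in isoB, close to those of all 72 below.

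In the comparison of *sgg* isoA null embryos with their control, most mitochondrial ribosomal protein RNAs were measured slightly lower in the null samples, but none passed the test. Of the 72, 63 had a negative log2 fold change and 9 a positive one, with a median of -0.22 and a range of -0.64 to 0.32, beside a median of -0.008 over all 10397 genes kept. None was called in either direction by the quasi-likelihood test of edgeR at an adjusted p of 0.05, where 0.289% of all genes were called higher and 0.702% lower (0.289% and 0.683% with a log2 fold change of at least 0.7). At an unadjusted p under 0.05, 15 members were lower and 1 was higher, beside 9.52% and 9.39% of all genes. limma-voom also called 0, and DESeq2 called 3 lower (*mRpL21*, *mRpL30* and *mRpS28*), where it called 3% of all genes lower and 3.03% higher. In 20 members every null sample lay below every control sample, and in 1 above, beside 13.2% and 11.6% of all genes.

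*mRpS28*, a small subunit protein, had the smallest adjusted p. Its level was 24.3, 24.6 and 23.3 CPM in the null and 34.3, 31.7 and 45.1 CPM in the control samples. The groups did not overlap, and control replicate 3 was the highest. The log2 fold change was -0.62 ± 0.16 (SE), with an adjusted p of 0.12. In the isoB experiment the same gene stood at 19.1, 20.9, 18.6 and 23.0 CPM in null and 19.5, 20.9, 17.8 and 23.2 CPM in control samples, so those groups lay on top of each other (0.0053 ± 0.11).

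*mRpS14*, which belongs to the conserved core of the small subunit, had the largest negative log2 fold change in isoA, -0.64 ± 0.21 (adjusted p = 0.18). Its null samples were at 29.3, 27.6 and 27.3 CPM and its controls at 35.4, 36.0 and 59.5 CPM. No null sample reached a control, and control replicate 3 stood far above the other 2 controls. *mRpL21*, of the large subunit core, was at 28.0, 25.8 and 27.6 CPM in null against 37.0, 34.1 and 50.7 CPM in control samples (-0.58 ± 0.17, adjusted p = 0.15). Its null samples were all below its controls, and the same control replicate was again the highest. The other members with large negative values were *mRpS21* (-0.56 ± 0.32), whose groups overlapped, and the mitochondria-specific *mRpS34* (-0.54 ± 0.15), whose groups did not, with adjusted p of 0.36 and 0.15.

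*mRpL39*, a large subunit protein without a bacterial counterpart, was the 1 member above its controls in every isoA null sample. It stood at 58.4, 55.0 and 67.1 CPM in null and 43.7, 54.4 and 46.7 CPM in control samples. Null replicate 2 exceeded control replicate 2 by little, and the log2 fold change of 0.32 ± 0.13 had an adjusted p of 0.26. The next 4 positive values, of *mRpS5* (0.16), *mRpS7* (0.08), *mRpS30* (0.05) and *mRpL27* (0.05), were all within 1 SE of 0.

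A single control library carried much of the isoA difference. Control replicate 3 had the highest level of 61 of the 72 members, and its members took 0.344% of its counts against 0.279% and 0.294% in the other controls and 0.265% to 0.300% in the null samples. The summed level of the members was 2939, 2846 and 3652 CPM in control and 2841, 2609 and 2706 CPM in null samples, 3146 ± 441 against 2719 ± 117 (SD, n = 3). Control replicate 2 lay just above null replicate 1, and the groups were separated only by that margin. The same library stood apart in other markers, with cuticle genes at 7585 CPM (13203 and 13639 in the other controls), neuron genes at 705 (943 and 875), glia genes at 420 (513 and 512) and heat shock genes at 1423 (739 and 904), and their part in its levels was not tested. Without control replicate 3 the median log2 fold change was -0.09, with 55 of 72 negative, 8 lower at an unadjusted p under 0.05 and 0 called by edgeR. An exact permutation test of 3 samples against 3 cannot give a p below 0.1.

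**Figure D1:**
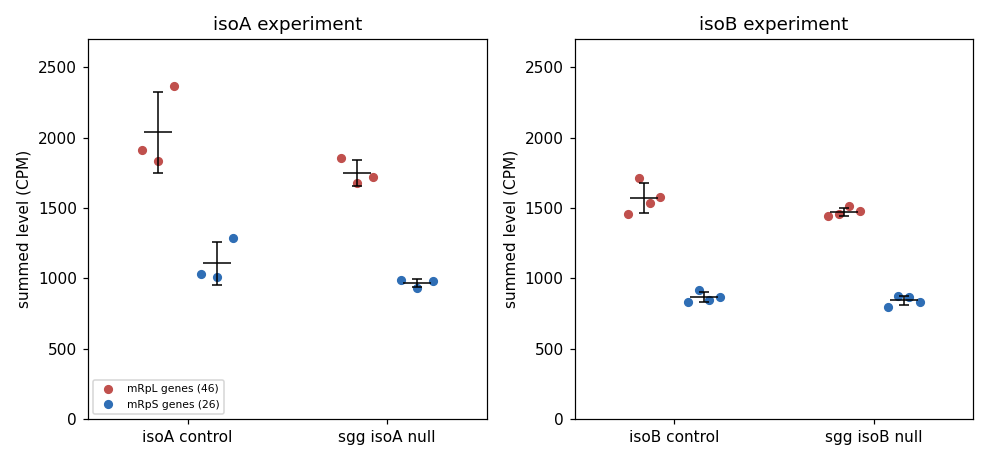
Summed level in CPM of the 46 mRpL genes (red) and the 26 mRpS genes (blue) in every sample of the isoA experiment (left) and the isoB experiment (right), with black bars for the mean ± SD (n = 3 and n = 4). Isoform A control replicate 3 stands above the other 5 samples of its experiment in both groups of genes, and the isoB groups overlap.

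In the comparison of *sgg* isoB null embryos with their control, 2 members fell and the others did not pass the test. Both were proteins of the large subunit, *mRpL24*, which lies around the exit tunnel, and *mRpL41*, which has no bacterial counterpart. Of the 72 members 55 had a negative and 17 a positive log2 fold change, with a median of -0.09 and a range of -0.42 to 0.19, beside a median of -0.008 over all 10693 genes kept. Among all genes 4.17% were called higher and 6.89% lower, so 2 of 72 is a smaller share than the background. None of the members reached a log2 fold change of 0.7, which 0.982% of all genes did upwards and 3.58% downwards. At an unadjusted p under 0.05, 8 were lower and 0 higher, beside 17.9% and 13% of all genes, so the share that was lower is also below the background. DESeq2 called the same 2 members and *mRpS18A*, where it called 10.1% of all genes lower and 9.46% higher. The groups did not overlap for 11 members, all lower in the null, beside 12.5% of all genes lower and 7.78% higher.

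*mRpL24* (chromosome 2L, 4944256 to 4945361, minus strand, Release 6) stood at 32.2, 32.1, 31.8 and 29.7 CPM in the isoB null and 37.0, 43.3, 39.5 and 38.6 CPM in the control samples. All 4 null samples were below all 4 controls, and they lay closer together than the controls. The means were 31.5 ± 1.2 and 39.6 ± 2.7 CPM (SD, n = 4), a log2 fold change of -0.33 ± 0.08 (SE) with an adjusted p of 0.029 by edgeR. The exact two-sided permutation test gave p = 0.0286, the smallest that 4 samples against 4 allow. Every gene whose groups do not overlap gets this unadjusted p, so it adds nothing to the lack of overlap. In isoA the gene had 45.2, 43.0 and 46.4 CPM in null against 45.3, 46.4 and 56.0 CPM in control samples, which overlapped (-0.14 ± 0.13).

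*mRpL41* (chromosome 2R, 15217024 to 15217617, minus strand) was at 13.7, 14.9, 13.4 and 14.1 CPM in the isoB null and 16.5, 20.7, 18.5 and 19.6 CPM in the control samples. Again no null sample reached a control. The means were 14.04 ± 0.65 and 18.8 ± 1.8 CPM (SD, n = 4). The log2 fold change was -0.42 ± 0.10 with an adjusted p of 0.030 by edgeR. The exact permutation p of 0.0286 again only restates that the groups did not overlap. The isoA samples did not overlap either, at 21.5, 21.2 and 18.9 CPM in null and 23.1, 24.4 and 24.0 CPM in control, but the log2 fold change of -0.21 ± 0.13 did not pass (adjusted p = 0.39). *mRpL41* shares 7.91% of its exon bases with *CG11808* and *mRpL24* shares 5.71% with *synr*, and *CG11808* had a log2 fold change of 0.12 in isoB (adjusted p = 0.66). Both calls were lost when any 1 of 5 libraries was left out, namely control replicate 2, 3 or 4 or null replicate 2 or 3. Adjusted p by edgeR was then 0.063 to 0.087 for *mRpL24* and 0.052 to 0.090 for *mRpL41*. Their log2 fold changes stayed between -0.36 and -0.29 and between -0.48 and -0.38. These 5 fits called 309 to 706 of all genes, against 1183 with every sample.

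The other members with large negative values in isoB lay just outside the threshold or further from it. *mRpS18A* was at 23.1, 24.6, 22.7 and 23.2 CPM in null and 25.998, 29.7, 28.0 and 30.2 CPM in control samples, with no overlap, and its log2 fold change of -0.28 ± 0.08 had an adjusted p of 0.058. It was called with DESeq2 (adjusted p = 0.032) and without scaling beyond total library size (adjusted p = 0.041 by edgeR). *mRpS21* (-0.34 ± 0.17) and the mitochondria-specific *mRpL55* (-0.29 ± 0.11) had adjusted p of 0.21 and 0.11, and their groups overlapped. The largest positive value was that of *mRpS29*, the GTP-binding protein of the small subunit that is DAP3 in humans. It stood at 44.9, 51.1, 53.6 and 47.9 CPM in null and 42.2, 47.9, 40.4 and 43.2 CPM in control samples, and the groups overlapped (0.19 ± 0.09, adjusted p = 0.17). The next positive values, of *mRpS24* (0.08), *mRpL4* (0.08), *mRpL1* (0.05) and *mRpS30* (0.05), were about as large as their SE or smaller.

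**Figure D2:**
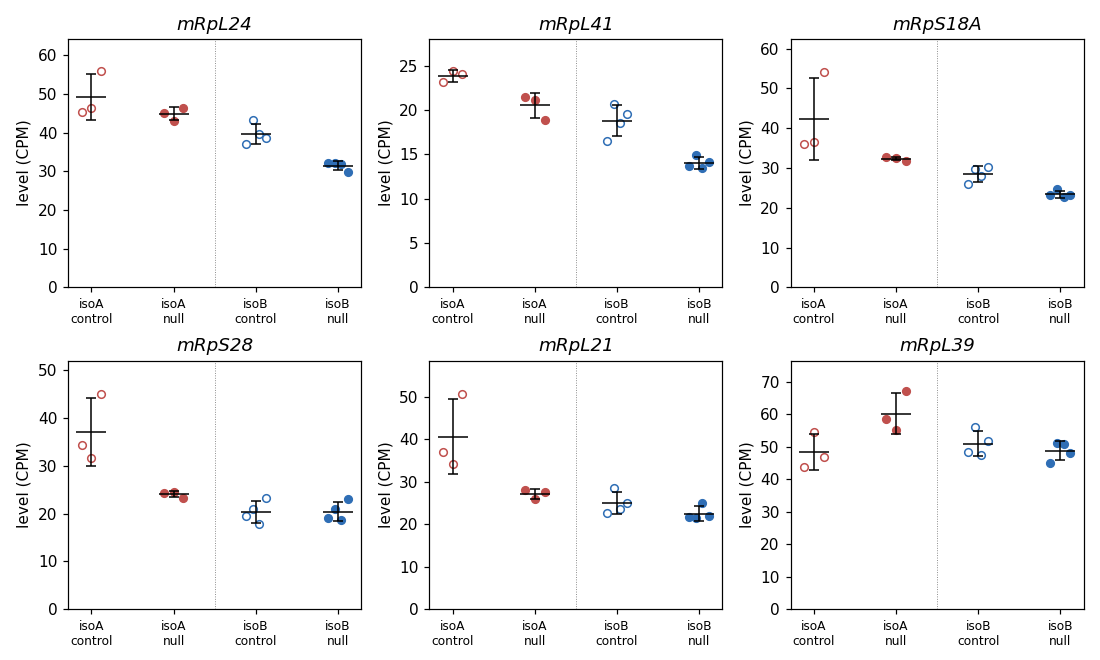
Level in CPM of 6 members in every sample, with open points for controls, filled points for nulls and black bars for the mean ± SD. Levels were scaled within each experiment (red isoA, blue isoB). The isoB nulls of *mRpL24*, *mRpL41* and *mRpS18A* lie below all their controls, the isoA nulls of *mRpS28* and *mRpL21* lie below all theirs, and those of *mRpL39* lie above.

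The summed level of the members did not separate the isoB groups. It was 2241, 2330, 2382 and 2310 CPM in null and 2293, 2633, 2386 and 2447 CPM in control samples, 2316 ± 58 against 2440 ± 144 (SD, n = 4). Control replicate 2, the shallowest library of the experiment with 11189291 counts, had the highest level of 45 of the 72 members, and null replicate 1, with 14378062 counts, the lowest of 25. Without control replicate 2 the median log2 fold change was -0.06, with 52 of 72 negative and 0 called. With all 14 samples scaled together the summed level was 3110 ± 460 CPM in isoA control, 2681 ± 103 in isoA null, 2444 ± 127 in isoB control and 2354 ± 44 in isoB null samples. Both isoA groups thus lay above the isoB group means, but the lowest isoA null sample (2602 CPM) was below the highest isoB control sample (2616 CPM). The isoB null and control ranges overlapped. The 2 experiments also differ in cross and in selection for males, which cannot be told apart in a comparison between them. In whole embryos, fewer cells with such RNA and less RNA per cell cannot be told apart.

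By role, no group of members stood out by its calls. The 4 proteins near the peptidyl transferase centre (*mRpL2*, *mRpL3*, *mRpL16* and *mRpL27*) ranged from -0.21 to 0.05 in isoA and from -0.11 to -0.09 in isoB. The 3 proteins of the stalk region (*mRpL10*, *mRpL11* and *mRpL12*) ranged from -0.29 to -0.10 and from -0.14 to -0.02. The 6 proteins around the exit tunnel had medians of -0.14 and -0.13, and 1 of them, *mRpL24*, was called lower in isoB. The group around the decoding site, with *tko* counted in, had medians of 0.0036 and -0.02 over 5 genes. Of 17 mitochondria-specific mRpL genes 16 were negative in each comparison, with medians of -0.21 and -0.10 and 1 called, *mRpL41* in isoB. Of 9 mitochondria-specific mRpS genes 8 were negative in isoA (median -0.29) and 4 in isoB (median 0.0096), with 0 called by edgeR in both. *mRpS24*, *mRpS28* and *mRpS30* were taken off this list after values were seen. They had -0.01, -0.62 and 0.05 in isoA and 0.08, 0.0053 and 0.05 in isoB. Without isoA control replicate 3 the isoA medians were -0.12 for the mitochondria-specific mRpL genes, -0.10 for the mitochondria-specific mRpS genes and -0.03 for the exit tunnel group. Without isoB control replicate 2 the mitochondria-specific mRpL genes had a median of -0.05 with 14 of 17 negative and 0 called by edgeR, and the exit tunnel group one of -0.08. The medians of the decoding site group in both comparisons and of the mitochondria-specific mRpS genes in isoB took either sign when single libraries were left out.

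**Figure D3:**
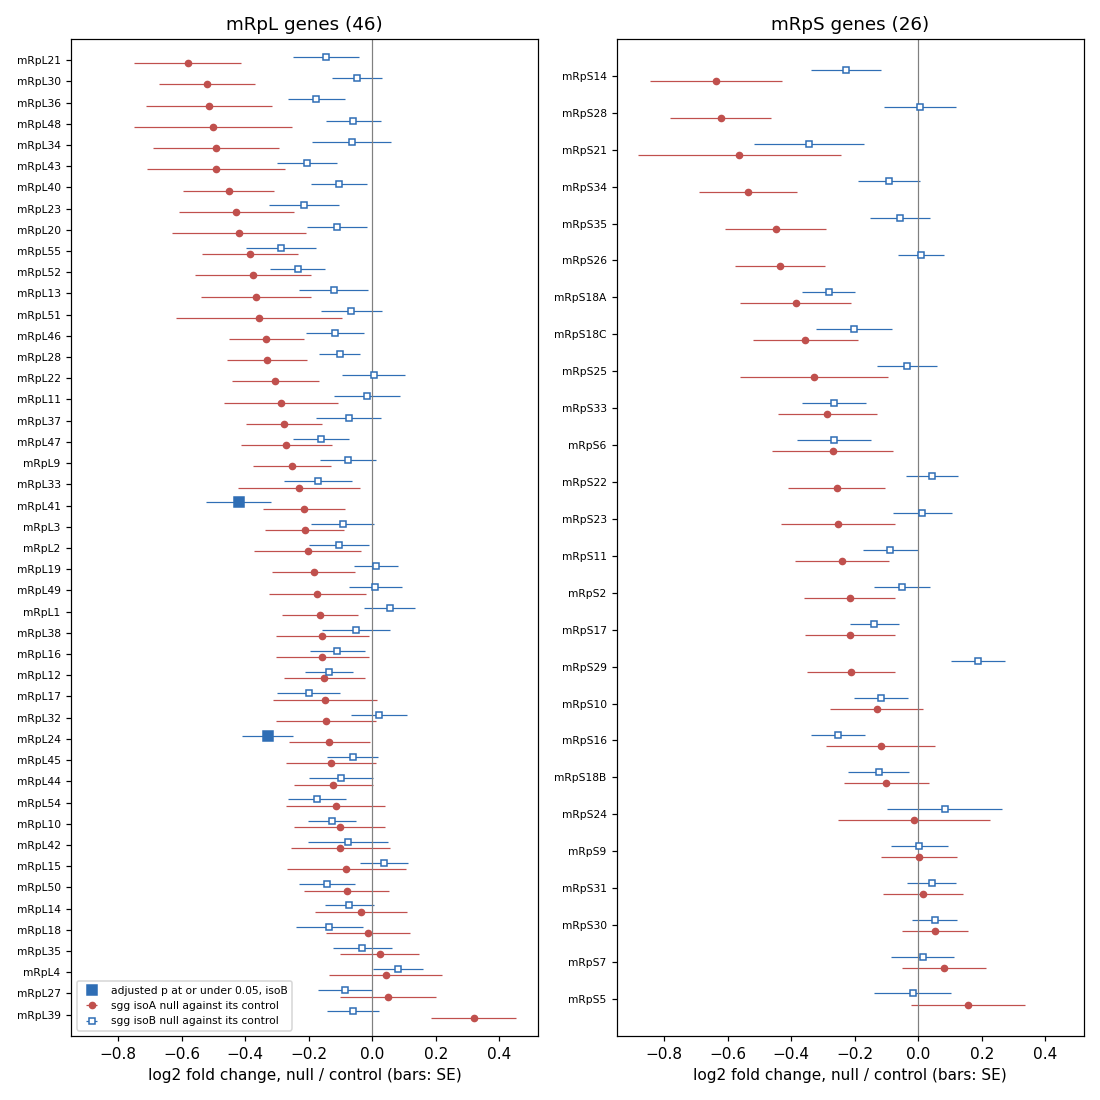
Log2 fold change (null over control) of the 46 mRpL genes (left) and the 26 mRpS genes (right), ordered by the isoA value, with bars for the SE. Red circles are isoA (n = 3 against 3), blue squares isoB (n = 4 against 4), and filled squares mark the 2 genes called in isoB, *mRpL24* and *mRpL41*. Most points of both comparisons lie left of 0, and those of isoB lie nearer to it.

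The 2 comparisons share no samples, and 51 of the 72 members were negative in both, 12 in isoA alone, 4 in isoB alone (*mRpL27*, *mRpL35*, *mRpL39* and *mRpS5*) and 5 in neither. Over all genes kept, 5296 of 10397 were negative in isoA and 5447 of 10693 in isoB, and the share negative in both is not given here. The groups did not overlap in either comparison, with the null lower, for 5 members, *mRpL28*, *mRpL36*, *mRpL41*, *mRpS18A* and *mRpS33*, beside 2.59% of the genes kept in both experiments. The absolute log2 fold change was smaller in isoB, the comparison with more libraries, for 57 members, and the share over all genes is not given here. Whether the effects differ was tested by the interaction (isoB effect minus isoA effect) in a fit of all 14 samples. None of the 72 was called, beside 1.71% of all genes with a positive and 0.835% with a negative interaction. At an unadjusted p under 0.05, 8 were positive and 1 negative, beside 12.1% and 8.78% of all genes. limma-voom called 0, and DESeq2 called 3 with a positive interaction, where it called 5.16% of all genes positive and 2.57% negative. The smallest adjusted p were those of *mRpS26* (0.47 ± 0.14, adjusted p = 0.075) and *mRpS28* (0.65 ± 0.19, adjusted p = 0.076), whose isoA values were the more negative. Without isoA control replicate 1 the count was 1 (*mRpS26*), and without isoA control replicate 2 it was 2 (*mRpL30* and *mRpS28*). The median interaction was 0.14, and 0.013 without isoA control replicate 3.

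Other gene groups were measured beside the members in the same fits. In isoA, 86 of 89 cytosolic ribosomal protein genes and 64 of 68 nuclear OXPHOS genes were negative as well, with medians of -0.24 and -0.27 and 0 called lower by edgeR in either. *RpS5b*, named after its value was seen, was the 1 gene of these lists called higher (1.03 ± 0.17, adjusted p = 0.041 by edgeR), and its list had 0 called higher without any 1 library other than control replicate 3. Without control replicate 3 these medians were -0.12 and -0.15. In isoB the groups parted. Cytosolic ribosomal proteins had a median of 0.10 with 86 of 88 positive and 1 called higher, while nuclear OXPHOS genes had a median of -0.19 with 66 of 70 negative and 7 called lower, beside the 6.89% of all genes called lower. That count was 1 without any 1 of control replicates 2, 3 and 4 and null replicates 2 and 3, and 6 to 10 without any other library. The members, at -0.09, lay between the 2 lists, and the difference between the lists was not tested.

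**Figure D4:**
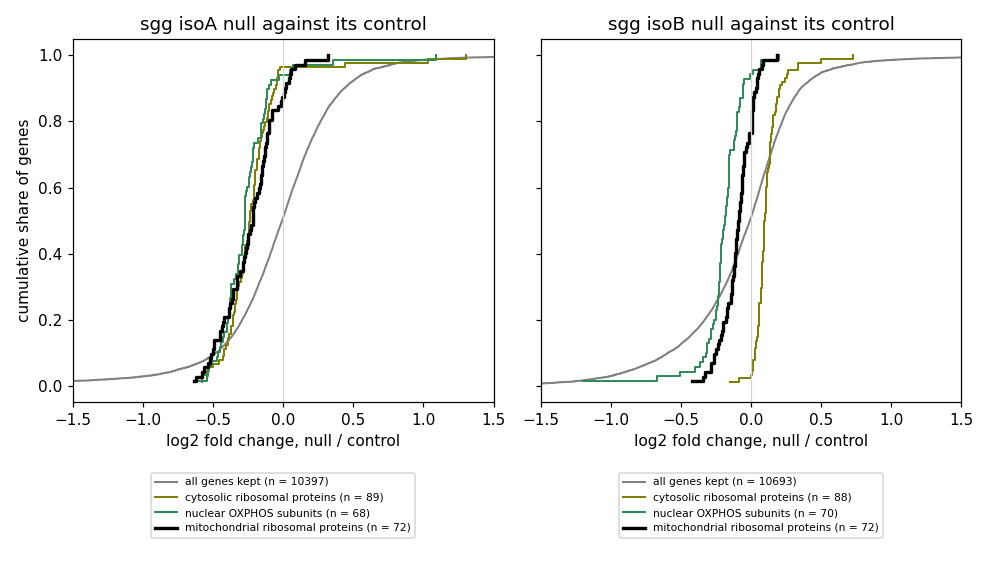
Cumulative share of genes (y axis) at or below each log2 fold change, null over control (x axis), in isoA (left) and isoB (right), for the members (black), cytosolic ribosomal proteins, nuclear OXPHOS subunits and all genes kept, drawn from -1.5 to 1.5. In isoA the 3 lists run together left of all genes, and in isoB the members lie between OXPHOS subunits (median -0.19) and cytosolic ribosomal proteins (median 0.10).

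The mRNAs that the mitochondrial ribosome translates did show calls in isoA. All 12 protein genes of the mitochondrial genome that were tested were negative (median -0.86), and 6 were called lower, *mt:ND1*, *mt:ND3*, *mt:ND4*, *mt:ND5*, *mt:Cyt-b* and *mt:ATPase6*. Of all genes 0.702% were called lower. *mt:ND4*, a subunit of complex I, had the smallest adjusted p. It was at 302, 318 and 269 CPM in null and 571, 751 and 722 CPM in control samples, a log2 fold change of -1.20 ± 0.13 with an adjusted p of 0.011 by edgeR. Its call was lost without any 1 of the null samples, with adjusted p of 0.061 to 0.096 by edgeR. Its log2 fold changes were then -1.25 to -1.13. Each of the 6 calls was lost without null replicate 1 and without null replicate 3. Without null replicate 1, 2 or 3 only 10, 12 or 6 of all genes were called, against 103 with every sample. Without control replicate 1 or 3, 7 of 13 mitochondrial protein genes were called lower, and without control replicate 2, 5 of 12. The share of all genes called lower was 0.244% without control replicate 1, 0.814% without 2 and 1.53% without 3. In the fit of all 14 samples *mt:ND3*, *mt:Cyt-b* and *mt:ND1* were not called (adjusted p = 0.080, 0.064 and 0.060). The ribosome's own large rRNA, *mt:lrRNA*, was at 52878, 59807 and 59290 CPM in null and 77956, 82303 and 91790.5 CPM in control samples, which did not overlap (-0.55 ± 0.10, adjusted p = 0.055 by edgeR). The small rRNA, *mt:srRNA*, had 7.15 to 8.56 CPM in null samples and 19.0, 709 and 31.4 CPM in controls, where control replicate 2 stood far above the others (-4.96 ± 1.32, adjusted p = 0.13). In isoB the rRNAs were not called either, at -0.17 and 0.46 (adjusted p = 0.59 and 0.70 by edgeR). The libraries were made from poly(A)-selected RNA, so these values need not follow the amount of either rRNA. The mitochondrial mRNAs passed the same selection, and its part in their values was not tested. In isoB 0 of 13 mitochondrial protein genes were called by edgeR, and *mt:ND4* had -0.15 ± 0.20. The median was -0.11 (-0.22 to 0.07 when single libraries were left out). Their summed level spread from 4849 to 10078 CPM in isoB null and from 7442 to 9882 CPM in isoB control samples. The interaction was positive for all 13 but called 0 by edgeR (smallest adjusted p = 0.051). A difference between the isoA and isoB effects was thus not shown for these genes.

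Nuclear genes that act with the mitochondrial ribosome gave few calls. The small subunit genes with other symbols, *tko* (counterpart of S12) and *bonsai* (of S15), were not called in the fits by experiment, with -0.43 ± 0.13 and -0.19 ± 0.13 in isoA (adjusted p = 0.16 and 0.45) and -0.27 ± 0.09 and 0.02 ± 0.09 in isoB (adjusted p = 0.077 and 0.88). In the fit of all 14 samples *tko* was called lower in isoA (-0.44, adjusted p = 0.045). Of 10 translation factors, 16 aminoacyl-tRNA synthetases and 12 genes of mitochondrial transcription and RNA stability that were tested, 0 were called in isoA by edgeR. In isoB 1 of each was called, beside 4.17% of all genes called higher and 6.89% lower, so the lists are not set apart from the background by these calls. *mEFG1*, the mitochondrial elongation factor G, rose (0.38 ± 0.08, adjusted p = 0.018), *bsf*, an RNA-binding protein that stabilises mitochondrial transcripts, rose (0.40 ± 0.07, adjusted p = 0.012), and *SerRS-m*, the mitochondrial seryl-tRNA synthetase, fell (-0.53 ± 0.11, adjusted p = 0.019). Their groups did not overlap. The call of *mEFG1* was lost without control replicate 2 or 3 or null replicate 3 (adjusted p = 0.052 to 0.059), and that of *SerRS-m* without control replicate 2 or 3 or null replicate 2 (adjusted p = 0.050 to 0.065).

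Gene length moved with these small differences. The members are short, with a median exon length of 783 bases (327 to 2078). Over 71 members the Spearman correlation of log2 fold change with exon length was 0.34 in isoA and 0.46 in isoB, and over all genes with a length it was 0.34 and 0.18. These correlations are across genes that share the same libraries and are given as a description. Other protein-coding genes within the same range of lengths had a median log2 fold change of -0.12 in isoA and -0.07 in isoB, and 64.0% and 57.5% of them were negative, beside 88.7% and 76.1% of the 71 members. The part of length in the members' values was not tested.

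**Figure D5:**
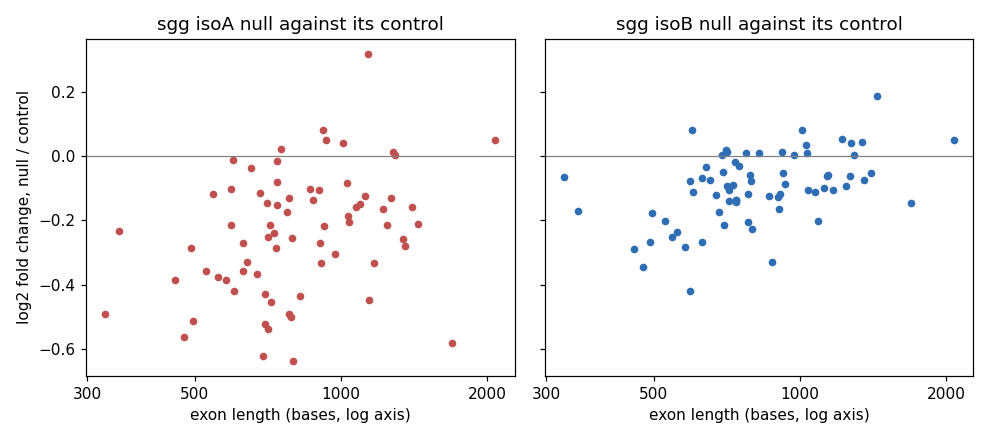
Log2 fold change of the 71 members with an annotated length (y axis) against exon length in bases (x axis, log scale), in isoA (left) and isoB (right). The Spearman correlations are 0.34 and 0.46, and single genes depart from them, such as *mRpL21* (1696 bases, -0.58 in isoA).

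Exon bases are shared with a neighbour in 42 of the members, and the part of this in the members' values was not tested. The median log2 fold change was -0.22 for members that share and -0.23 for 29 members that do not in isoA, and -0.08 and -0.11 in isoB. Both members called in isoB belong to those that share.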

How the data were processed

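The authors aligned single-end reads of a strand-specific kit with TopHat 2.1.1 and Bowtie 2.3.4.0, and Rsubread gave a count for each gene from its FlyBase Release 6 exons. The deposited values used here are raw counts. The authors' limma-voom tables also hold log2 CPM, fold changes and p-values, which were not used. The 72 members had the same raw counts in all tables. Each experiment was tested in R 4.3.3 with edgeR 4.0.16 (filterByExpr, minimum count 10, TMM scaling, quasi-likelihood test, two-sided, Benjamini-Hochberg over all genes kept), called at an adjusted p of 0.05. CPM values use TMM-scaled library sizes. The SE beside a log2 fold change was derived from the edgeR test, as the absolute value divided by the square root of its F statistic. limma 3.58.1, DESeq2 1.42.0, other scalings and filters, a replicate block and leaving out each library were alternatives. The fit was tested on simulated data whose changes were larger than that of any member, so that test does not cover small differences.

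The members and lists were chosen with earlier results of these data known, and some role assignments were removed or moved after values were seen. *mRpS24*, *mRpS28* and *mRpS30* were removed from the mitochondria-specific mRpS genes. *mRpL44* was removed from the exit tunnel group and *mRpL4* was moved to it. Genes were named by rule: called members, the 5 largest values in each direction, the 4 highest and 4 lowest levels, and called genes of related lists. *mRpS26*, members whose fold change has opposite signs, the members of overlap counts, the mitochondrial rRNAs, *srp*, *Pxn*, *RpS5b* and *mRpL14*, named for its position, were added afterwards. No source used here says how isoB replicates were cultured, so p-values measure the spread between samples. Exon lengths and positions came from Ensembl's annotation of Release 6, a later version than the authors', in which 71 members were found by identifier. No sequence is printed.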

Additional observations from a re-analysis of the deposited data

Results flagged for a closer look

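Among 44 groups of 4 isoB samples (the named genes and the summed level), 5 had 1 sample apart from the other 3 by Dixon's criterion, where chance flags about 1 in 20. For *mRpL24* null replicate 4 was lowest at 29.7 CPM, below 31.8 to 32.2 in the others. For *mRpL21* null replicate 3 was highest at 25.01 CPM, above 21.4 to 21.8. The other 3 were control replicate 2, which was highest for *mRpL1* at 64.7 CPM (58.3 to 58.8 in the others) and for *mRpL12* at 86.5 CPM (75.2 to 75.9), and lowest for *mRpS24* at 3.55 CPM (3.70 to 3.73). Groups of 3 were not examined.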

How the results depend on the processing

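The median log2 fold change of the members stayed negative under all alternatives run, between -0.28 and -0.09 in isoA and between -0.12 and -0.06 in isoB. In isoA, 3 members were called with DESeq2 and 6 in the fit of all 14 samples (fits that called 627 of 10397 and 573 of 11021 genes), against 0 elsewhere, and the count was 0 to 0 when single libraries were left out. In isoB the 2 calls became 3 with DESeq2 and with total library size, 0 without a filter on low counts and 0 to 3 when single libraries were left out. No pairing of samples by replicate number was seen (correlations of same-numbered deviations -0.22 to -0.11 in isoA and -0.23 to 0.18 in isoB). Samples with unlike numbers reached 0.29 in isoA and 0.40 in isoB, and with 3 or 4 samples a group such correlations can show little. With the replicate number as a block, 0 members were called in isoB, and *bsf*, *mEFG1* and *SerRS-m* were not (adjusted p = 0.070, 0.094 and 0.092), nor were *mt:ND1* and *mt:ND5* in isoA (0.059 and 0.052). Adjusted p over the alternatives ranged from 0.0048 to 0.12 for *mRpL24* and from 0.0053 to 0.098 for *mRpL41*. The interaction called 3 members with DESeq2 (7.73% of all genes) and 0 to 2 when single libraries were left out. Total library size without scaling moved the median interaction of all genes from -0.016 to -0.13 and that of the members from 0.14 to 0.026. Of 480 values of named members under alternatives, 441 kept their direction and side of the threshold. Sign changes were seen for values near 0. *mRpS24* in isoA was 0.053 without scaling and -0.20 to 0.093 when libraries were left out (-0.055 to 0.18 in isoB). *mRpL11* in isoB was 0.0069 with RLE factors, 0.012 without a filter, 0.0022 with DESeq2, 0.0023 in the fit of all samples and -0.073 to 0.035 when libraries were left out. *mRpL27* in isoA ranged from -0.059 to 0.15 and *bonsai* in isoB from -0.035 to 0.092 when libraries were left out. The cause was not tested. With 3 or 4 libraries a group, a missed call does not show that a member did not change.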
